A study of Sus scrofa with 15 samples.

Results

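The 7 enzymes of amino acid metabolism in the pig kidney described here by their transcript levels are BHMT, GLUD1, GATM, DAO, DDO, ARG1 and ASS1. They were chosen by name, with earlier results of the same arrays known, so their values are a description and no test of them is given. A probe was assigned to an enzyme when its RefSeq accession belonged to the pig gene of that symbol. This gave 25 probes for 6 of the 7 enzymes, out of 43603 probes, of which 6686 could be assigned to 3020 genes. BHMT had 1 probe, GLUD1 10, GATM 5, DAO 2, DDO 3 and ARG1 4. No probe was assigned to ASS1, the argininosuccinate synthase with which the kidney makes arginine from citrulline, and it was not analysed here.

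The kidneys came from 15 female Yorkshire pigs of 1 age, 5 in each of 3 groups, with 1 single-colour array per pig. Every pig, controls included, had lost the left kidney a week earlier, and its remaining right kidney was then made ischemic by clamping the renal artery and vein for 90 min, so no group shows a kidney without ischemia. The control group had no ischemic preconditioning (IPC). The rIPCe group had remote IPC, repeated clamping of the right external iliac artery, just before renal ischemia (early window). The rIPCl group had the same remote IPC 24 h before renal ischemia (late window). Tissue was taken at 72 h. Both comparisons with the control group share the same 5 control arrays.

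The kidney takes up filtered amino acids in the proximal tubule and rebuilds many of them there. BHMT, betaine-homocysteine methyltransferase, turns homocysteine back into methionine with betaine as the methyl donor. GLUD1, mitochondrial glutamate dehydrogenase, converts glutamate to 2-oxoglutarate and ammonia, which the tubule uses to excrete acid. GATM, glycine amidinotransferase, joins arginine and glycine in the first step of creatine synthesis, for which the kidney is a main site. DAO and DDO are peroxisomal oxidases of neutral and of acidic D-amino acids. ARG1, arginase, splits arginine into ornithine and urea, closes the urea cycle in liver and is also made by some macrophages.

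Signals are given as log2 of the Agilent processed signal after quantile normalization, so that a difference of 1 is a 2-fold difference. Levels are compared between groups for the same probe only. On 62.16 to 74.22% of probes per array the signal was well above background, array-to-array correlations lay between 0.9543 and 0.9919. With 5 arrays a group, the number of pigs sets the precision. The arrays lay on 4 slides, with control 1 to 4 on slide 1, control 5 and rIPCe 1 to 3 on slide 2, rIPCe 4 and 5 with rIPCl 1 on slide 3, and rIPCl 2 to 5 on slide 4. Slide and group can therefore be separated only through slides 2 and 3. In whole tissue, fewer cells of a type and less RNA per cell cannot be told apart. All 14 measured proximal tubule markers, of 22 listed, were well above background on every array of at least 1 group.

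In rIPCl kidneys BHMT and GLUD1 were lower than in controls and GATM was higher, while DAO, DDO and ARG1 overlapped between the groups. Of the 25 probes, 10 were at least 2-fold lower in rIPCl and 5 at least 2-fold higher, against 3.23% and 4.23% of all probes. All 10 that were 2-fold lower belonged to BHMT and GLUD1, 9 of them to GLUD1, and all 5 that were 2-fold higher to GATM. Probes of 1 gene read the same transcript, so these counts beside the shares of all probes do not measure an excess of enzymes. The adjusted p was under 0.05 for 10 of the 25 probes, against 6.27% of all probes tested, but because this contrast was known when the enzymes were chosen nothing is read from that count. In rIPCe, 7 of 25 probes were at least 2-fold lower, against 1.76% of all probes, and 0 were at least 2-fold higher, against 2.05%. None of the 25 probes separated all rIPCe arrays from all controls, where 2.73% of all probes had every rIPCe array below every control and 0.569% above. Between rIPCl and rIPCe 1 of 25 probes, that of BHMT, was at least 2-fold lower and 0 at least 2-fold higher, against 0.972% and 0.642%, and 0 had no overlap, against 0.335% below and 0.378% above. The median log2 fold change over the 25 probes was -0.64 in rIPCl and -0.53 in rIPCe, and over all probes it was -0.03 and -0.01. GLUD1 supplied 10 of the 25 probes, so the median of the 25 is weighted to GLUD1 and does not describe the 6 enzymes evenly. On the brightest probes of BHMT, GLUD1, GATM, DAO, DDO and ARG1 the rIPCl values were -2.47, -1.14, 1.05, -0.27, 0.04 and 0.43. The rIPCe values were -1.33, -0.77, 0.61, 0.21, -0.04 and 0.74.

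**Figure D1:**
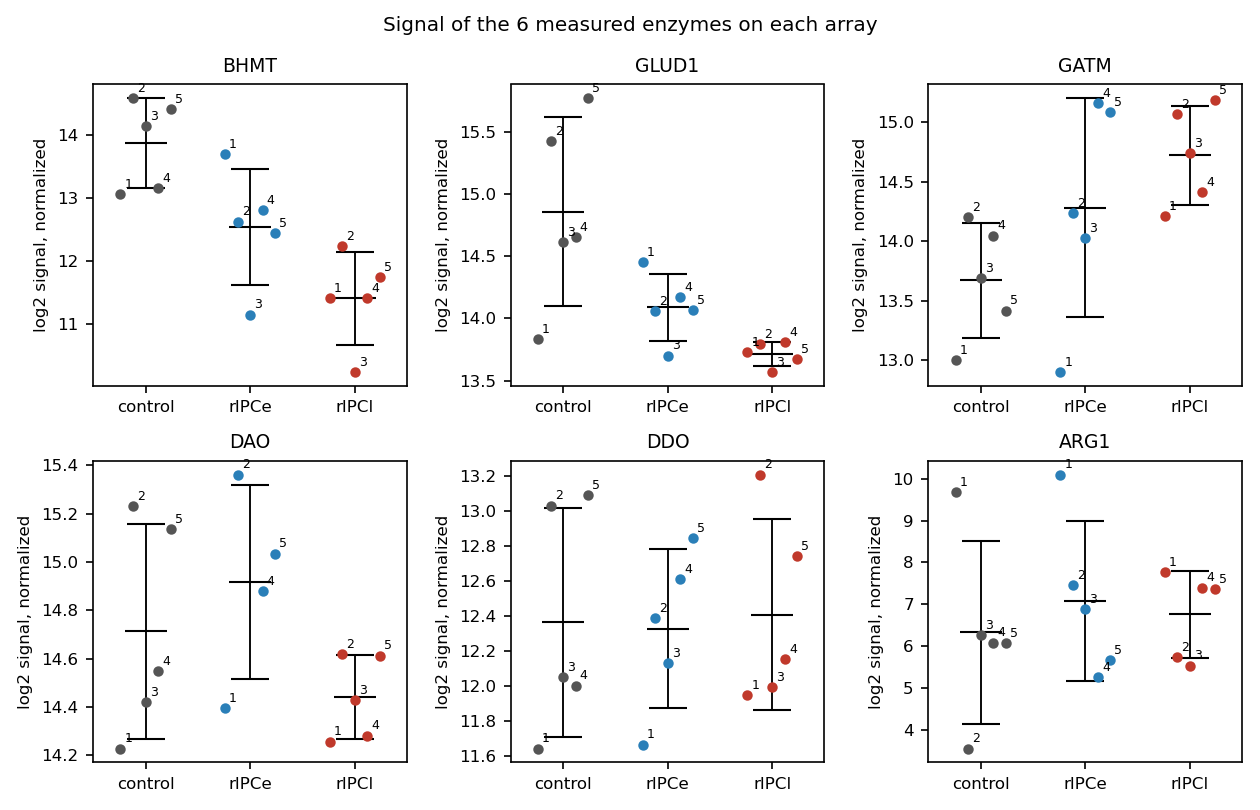
Log2 signal (y axis, quantile normalized) of the brightest probe of each of the 6 enzymes on every array, by group (x axis); points are single pigs with their replicate number, and the black bars are the mean and SD (n = 5 a group, n = 4 for DAO in rIPCe). All rIPCl points lie below all control points for BHMT and GLUD1 and above them for GATM, and the groups overlap for DAO, DDO and ARG1.

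BHMT, the methionine-forming enzyme, had the widest difference between groups of the 6 brightest probes. In controls 1 to 5 its log2 signal was 13.06, 14.59, 14.15, 13.15 and 14.42. In rIPCe 1 to 5 it was 13.70, 12.62, 11.14, 12.80 and 12.45. In rIPCl 1 to 5 it was 11.40, 12.23, 10.23, 11.41 and 11.74. Every rIPCl kidney lay below every control kidney, and 4 of 5 rIPCe kidneys did, with rIPCe 1 inside the control range. All arrays of rIPCl lay below all controls for 6.76% of probes. The group means were 13.87 ± 0.72 in control, 12.54 ± 0.92 in rIPCe and 11.40 ± 0.74 in rIPCl (SD, n = 5 each).

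The mean BHMT signal was thus 5.54-fold lower in rIPCl than in control, a log2 fold change of -2.47 with a standard error of 0.47. In rIPCe it was 2.51-fold lower (-1.33, standard error 0.47). Between the windows rIPCl was lower than rIPCe by -1.14 (standard error 0.47), but only rIPCl 3 fell outside the rIPCe range, so these neighbours in the order were not separated by their spread. BHMT rests on a single probe, and no second probe checks it.

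GLUD1, the glutamate dehydrogenase, was lower on all 10 of its probes in both preconditioned groups. On the brightest probe the control signals were 13.83, 15.42, 14.61, 14.65 and 15.77. The rIPCe signals were 14.45, 14.06, 13.70, 14.17 and 14.07, and the rIPCl signals 13.73, 13.79, 13.57, 13.81 and 13.67. All 5 rIPCl kidneys lay below all 5 controls, with 13.83 in control 1, the lowest control, against 13.81 in rIPCl 4, the highest rIPCl kidney. In rIPCe only rIPCe 3 lay below every control.

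The spread within groups was unequal for GLUD1. The SD of the brightest probe was 0.76 in control, 0.27 in rIPCe and 0.099 in rIPCl (n = 5 each), so the rIPCl kidneys were much closer to each other than the controls were. Its log2 fold change was -1.14 in rIPCl and -0.77 in rIPCe (standard error 0.28 for each), and -0.38 between rIPCl and rIPCe. Over the 10 probes the log2 fold change ran from -1.67 to -0.83 in rIPCl, with 9 probes at least 2-fold lower and 8 with no overlap between the groups. In rIPCe it ran from -1.24 to -0.58, with 6 probes at least 2-fold lower. The median SD between the centred signals of the 10 probes on an array was 0.12, which is smaller than the differences between groups. The 10 probes read the same transcript and are not separate evidence about it.

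GATM, the first enzyme of creatine synthesis, differed in the other direction. Its brightest probe gave 13.00, 14.20, 13.69, 14.05 and 13.42 in controls and 14.21, 15.07, 14.74, 14.41 and 15.19 in rIPCl. All 5 rIPCl kidneys lay above all 5 controls, with 14.21 in rIPCl 1, the lowest of them, against 14.20 in control 2, the highest control. All arrays of rIPCl lay above all controls for 2.72% of probes. In rIPCe the signals were 12.90, 14.24, 14.03, 15.16 and 15.08.

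Within rIPCe, rIPCe 4 and 5 matched the highest rIPCl kidneys and rIPCe 1 had the lowest GATM signal of the 15 arrays. The mean log2 fold change of the brightest probe was 1.05 in rIPCl and 0.61 in rIPCe (standard error 0.39 for each). All 5 GATM probes gave nearly the same value, from 1.05 to 1.16 in rIPCl and from 0.61 to 0.73 in rIPCe, and 4 of the 5 had no overlap between rIPCl and control. The 2 rIPCe kidneys with high GATM lay on slide 3 and the other 3 on slide 2. With the slide as a fixed block the rIPCl difference turned to -0.61, and on slide 3 alone rIPCl 1 lay below the mean of rIPCe 4 and 5 by -0.91. With the slide as a random block all 5 GATM probes stayed higher in rIPCl than in control, by 0.82 to 0.92. The direction of the GATM difference in rIPCl therefore depended on how the slide was treated, and group and slide cannot be told apart for it.

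**Figure D2:**
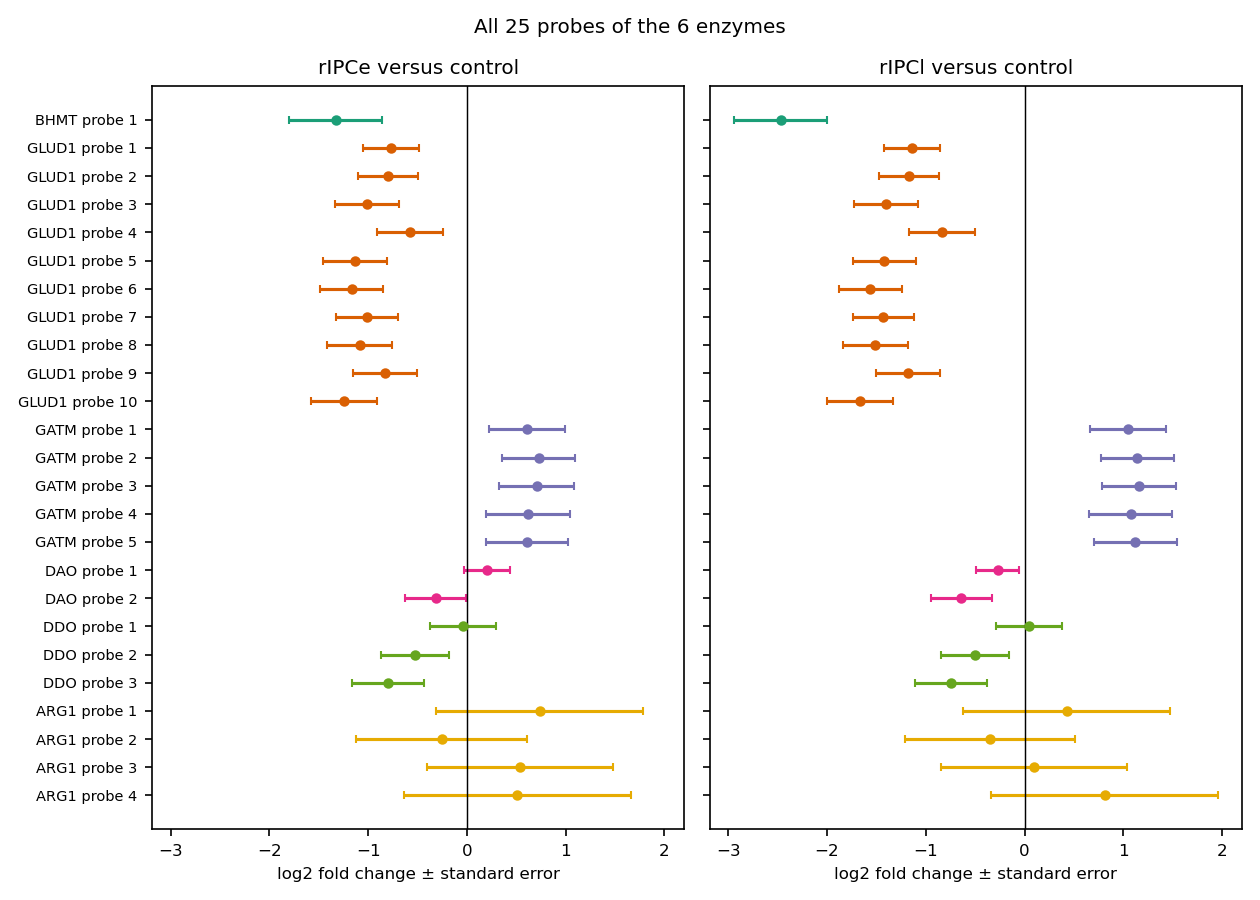
Log2 fold change against control (x axis; bars are the standard error of the fit) for each of the 25 probes of the 6 enzymes (y axis), in rIPCe (left) and rIPCl (right), with both panels on 1 scale. The BHMT probe and all 10 GLUD1 probes lie below 0 and all 5 GATM probes above 0 in both panels, while the DAO and DDO values differ between probes of a gene and the ARG1 probes lie on both sides of 0 with long bars.

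GATM and BHMT differed in opposite directions, so their difference within an array was also formed. After each gene's signals were centred on its own mean over the 15 arrays, GATM minus BHMT was -1.82 ± 0.70 in control, 0.12 ± 1.5 in rIPCe and 1.70 ± 0.71 in rIPCl (SD, n = 5 each). The controls ran from -2.62 to -0.72 and the rIPCl kidneys from 1.19 to 2.89, with no overlap. The rIPCe kidneys ran from -2.42 to 1.27, and rIPCe 1 alone lay within the control range. GATM minus GLUD1 gave -1.19 ± 0.69, 0.19 ± 1.04 and 1.00 ± 0.44 in the same order. These differences use the 3 genes that the choice had already set apart and are no further support for them.

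DAO, the oxidase of neutral D-amino acids, showed little difference between groups. Its brightest probe gave 14.23, 15.23, 14.42, 14.55 and 15.14 in controls. It gave 14.39, 15.36, 14.88 and 15.03 in rIPCe 1, 2, 4 and 5, the spot of rIPCe 3 having been left out as an outlier of the scan. In rIPCl it gave 14.26, 14.62, 14.43, 14.28 and 14.61. The 3 groups overlapped, with the rIPCl kidneys in the lower part of the control range. The log2 fold change was -0.27 in rIPCl (standard error 0.22) and 0.21 in rIPCe (standard error 0.23, n = 4). The other DAO probe gave -0.64 in rIPCl and -0.32 in rIPCe (standard error 0.31 for each), so both probes were below 0 in rIPCl and they differed in sign in rIPCe.

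DDO, the oxidase of acidic D-amino acids, had a brightest probe with nearly equal group means of 12.36 ± 0.66, 12.33 ± 0.46 and 12.41 ± 0.55 in control, rIPCe and rIPCl (SD, n = 5 each). Its control signals were 11.64, 13.03, 12.05, 12.00 and 13.09. The rIPCe signals were 11.66, 12.39, 12.13, 12.61 and 12.84, and the rIPCl signals 11.95, 13.21, 11.99, 12.15 and 12.74. Each group held both low and high kidneys, and the log2 fold change was 0.04 in rIPCl and -0.04 in rIPCe (standard error 0.33 for each). The remaining pair of DDO probes gave -0.50 and -0.75 in rIPCl and -0.53 and -0.80 in rIPCe (standard errors 0.35 and 0.36), so the probes of this gene disagreed. The sign of the small rIPCl value of the brightest probe also turned when each array was scaled by its 75th percentile, to -0.04. Control 1 had the lowest signal of the 15 arrays on the brightest probe of both DAO and DDO, and rIPCl 3 had it on their other probes.

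ARG1, the arginase, varied more among pigs of 1 group than between groups. On its brightest probe, well above background on 14 of 15 arrays, the control signals were 9.67, 3.55, 6.27, 6.09 and 6.07. The rIPCe signals were 10.10, 7.45, 6.88, 5.26 and 5.66, and the rIPCl signals 7.77, 5.73, 5.54, 7.40 and 7.36. Control 1 and rIPCe 1 stood highest and control 2 lowest, and these were the most extreme kidneys on the brightest probe. On the linear scale the highest array was 93.3-fold above the lowest over all 15 arrays, 69.6-fold within control, 28.6-fold within rIPCe and 4.72-fold within rIPCl.

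The 4 ARG1 probes agreed on the pigs and not on a group difference. Control 1 and rIPCe 1 were the 2 highest arrays on all 4 probes. The other 3 probes were well above background on 13, 10 and 6 of the 15 arrays. The brightest probe's log2 fold change was 0.43 in rIPCl and 0.74 in rIPCe (standard error 1.05 for each), and the 4 probes ran from -0.35 to 0.81 in rIPCl and from -0.25 to 0.74 in rIPCe. Without rIPCe 1 the rIPCe value was -0.02, and without control 1 it was 1.57. Without control 2 the rIPCl value was -0.27, and without control 1 it was 1.26. With both control 1 and rIPCe 1 left out, a setting added after the data were seen, the values were 0.82 in rIPCe and 1.26 in rIPCl. The sign of the ARG1 difference thus changed with the kidney left out, and no direction is read from these arrays with 5 pigs a group. By RT-PCR, a different measure, the study reported ARG1 mRNA as upregulated in both rIPCe and rIPCl.

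ARG1 is also made by macrophages, and the macrophage markers can be set beside it. The summed linear signal of the 9 measured macrophage markers, of 15 listed, was 39420 in control 1 and 11930 to 14690 in the other 4 controls. In rIPCe it was lowest in rIPCe 1, at 17950, against 25590 to 36030 in the other 4. In rIPCl it was lowest in rIPCl 1, at 24820, against 45350 to 86270 in the other 4. On the brightest ARG1 probe, the control pig with the highest ARG1 thus had the highest macrophage sum of its group. The rIPCe and rIPCl pigs with the highest ARG1 had the lowest sums of theirs. Macrophages' part in the ARG1 levels was not tested. Among the genes whose centred pattern over the 15 arrays was nearest to ARG1 were SFN, a 14-3-3 protein of epithelia, and HBEGF, an epidermal growth factor receptor ligand. Their root mean square differences from ARG1 were 0.95 and 0.99, where ARG1's own spread over the arrays was 1.62 and 2377 genes were compared. SFN was 12.43 in control 1 and 12.20 in rIPCe 1, and also 11.92 in rIPCe 2, against 6.69 in control 2.

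**Figure D3:**
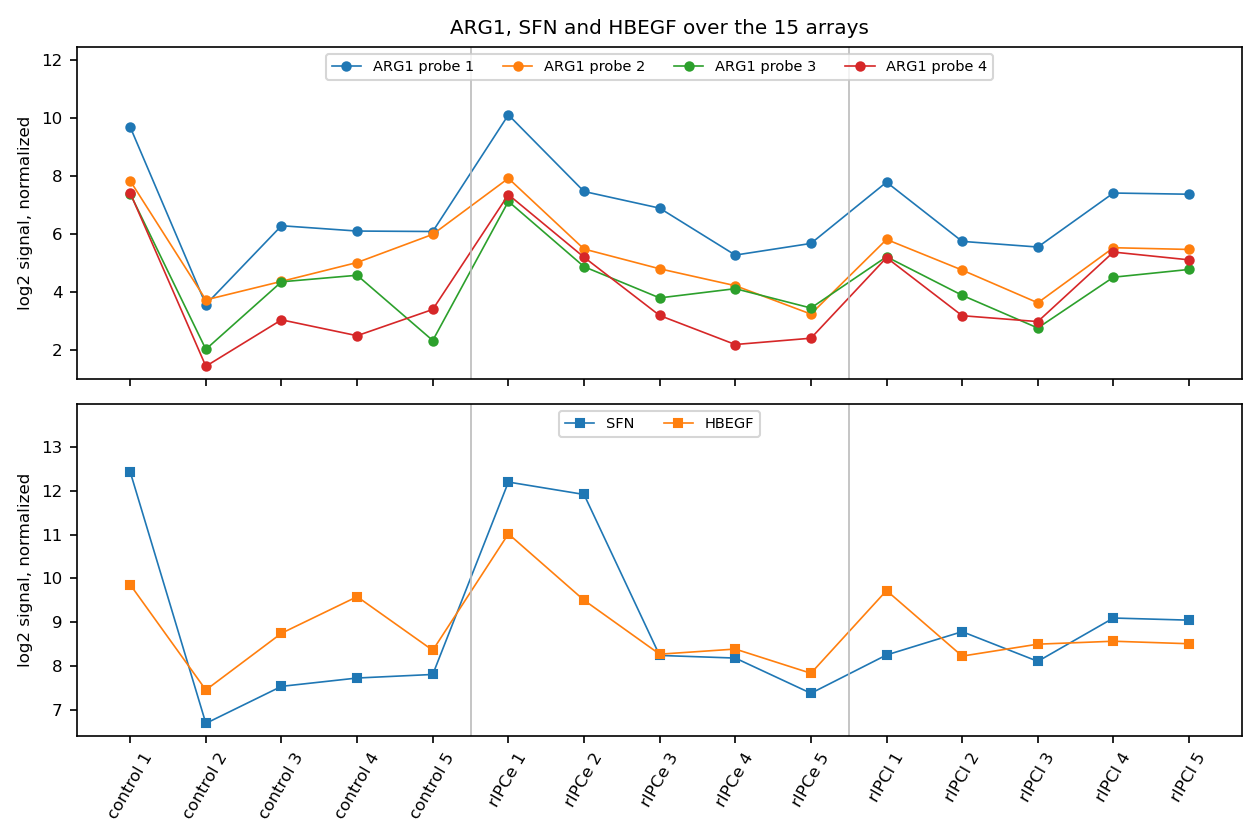
Log2 signal (y axis, quantile normalized) of the 4 ARG1 probes (top) and of SFN and HBEGF (bottom) on each of the 15 arrays (x axis, grouped by control, rIPCe and rIPCl); lines join values of 1 probe and mark no order of pigs. Control 1 and rIPCe 1 are the highest arrays on all 4 ARG1 probes, and control 2 is the lowest array for SFN and HBEGF.

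The genes nearest to the other enzymes were found in the same way, among 2376 or 2377 genes well above background on all arrays. BHMT lay nearest to SLC22A8, an organic anion transporter of the proximal tubule (0.54), AK4, a mitochondrial adenylate kinase (0.57), and CTH, which makes cysteine from cystathionine (0.65), with an own spread of 1.24. GLUD1 lay nearest to PSEN2, a presenilin (0.22), DPYD, which degrades pyrimidines (0.28), and CTH (0.29), with an own spread of 0.63. CTH, another enzyme of sulfur amino acids, was thus among the 3 nearest of both genes that were lower in rIPCl. GATM lay nearest to ANXA9 (0.40), C1QTNF7 (0.41) and MFAP2 (0.45), with an own spread of 0.72. DAO lay nearest to CRYZ, a quinone reductase (0.16), over 14 arrays, and DDO to MBP (0.27) and CRYZ (0.28). These distances describe 15 arrays that share groups and slides, and no test was made of them.

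The slides gave the only comparisons of groups made on the same glass, with few arrays in each. On slide 2, rIPCe 1 to 3 against control 5 gave log2 differences of -1.93 for BHMT, -1.70 for GLUD1, 0.30 for GATM, -0.26 for DAO (without rIPCe 3), -1.03 for DDO and 2.07 for ARG1. BHMT and GLUD1 were thus lower within this slide also, against a single control kidney that had the highest GLUD1 signal of the 15. On slide 3, rIPCl 1 against rIPCe 4 and 5 gave -1.22 for BHMT, -0.39 for GLUD1, -0.91 for GATM, -0.70 for DAO, -0.78 for DDO and 2.32 for ARG1. No slide held both rIPCl and control. With the slide as a block in the fit, the rIPCl differences were -3.15 for BHMT, -2.09 for GLUD1, -0.61 for GATM, -0.96 for DAO, -1.81 for DDO and 4.39 for ARG1, all linked through single kidneys.

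Other enzymes of amino acid metabolism were looked at in 5 lists, and 44 of their genes had an assigned probe. The lists, like the enzymes above, were chosen with earlier results of these arrays known. Their counts and adjusted p values therefore describe these arrays and are no independent test of the lists. In rIPCl the median log2 fold change of the 44 genes was -0.31, with 34 below 0 and 10 above, where the median of all probes was -0.03. In limma, 5 of the 44 (11.4%) were lower at an adjusted p under 0.05, against 3.58% of all probes, and 2 (4.55%) were higher, against 2.69%. OTC among the lower genes and GAD1 among the higher ones were near background. Of the 44 genes, 42 were well above background on every array of at least 1 group, whereas all probes include many dim ones. With the dim probes left out of the fit, 1623 of 29864 probes were lower and 1486 higher at an adjusted p under 0.05. At an unadjusted p under 0.05, 19 were lower and 3 higher, against 14% and 12.8% of all probes. By the study's rule, a 2-fold change with an unadjusted p under 0.05, 4 were lower and 1 higher in rIPCl, against 2.16% and 3.67% of all probes. By the same rule 0 were lower and 1 higher in rIPCe, against 0.917% and 1.27%, and 0 in either direction between the windows, against 0.252% and 0.273%. In rIPCe the median was -0.22, with 32 below 0 and 12 above, and 0 of 44 passed in either direction by limma, where 6 were lower and 2 higher at an unadjusted p under 0.05, against 8.65% and 5.45% of all probes. In that comparison 1 of all 43603 probes (0.00229%) passed. Between rIPCl and rIPCe 0 of 44 passed by limma, with 4 lower and 1 higher at an unadjusted p under 0.05, against 1.58% and 2.26% of all probes, and 0% of all probes passed the adjusted threshold. Passing in rIPCl and not in rIPCe does not show a difference between the windows.

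These calls depended on single kidneys. The number lower in rIPCl was between 0 and 7 as 1 array was left out at a time, and the number higher was between 0 and 3. Both counts were 0 without control 2, without rIPCl 4 or without rIPCl 5, and also with the slide as a random block. Without control 3, control 4, rIPCl 2 or rIPCl 3 the count lower was 2, 3, 2 and 1, and the count higher was 0 in each.

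Among the methionine, glycine and serine enzymes, 9 were measured and 1 fell, 1 rose and 7 did not pass in rIPCl. CTH, the cystathionine gamma-lyase, fell by 1.43 (standard error 0.27, adjusted p = 0.0213 in limma), from 14.19 ± 0.59 in control to 12.75 ± 0.35 in rIPCl (SD, n = 5 each), with all 5 rIPCl kidneys below all controls. In rIPCe its mean was 13.49 ± 0.35 (-0.70, adjusted p = 0.275 in limma). MAT2B, a regulatory subunit of the synthase of S-adenosylmethionine, rose by 0.70 (standard error 0.16, adjusted p = 0.032 in limma), and all 5 rIPCl kidneys lay above all controls. Of all probes, 6.76% had every rIPCl array below every control and 2.72% above. SARDH, sarcosine dehydrogenase, gave 0.85 and did not pass (adjusted p = 0.0604 in limma), and only 1 of its other 3 probes had the same sign.

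Of the 10 glutamate, glutamine and proline enzymes measured, 0 fell by limma (5 at an unadjusted p under 0.05), 1 rose and 8 had values below 0. The gene that rose was GAD1, a glutamate decarboxylase, which was not well above background on any control array and was well above it on all 5 rIPCl arrays. Its mean in rIPCl was 1.24-fold above a control mean raised to a floor. The measured mean log2 signals were 2.16 in control, 3.65 in rIPCe and 4.44 in rIPCl (adjusted p = 0.033 in limma for rIPCl). That floor is the lowest signal that was well above background on each array, or the probe's own signal where that was higher. It leaves out the spread between pigs, so 1.24 is not a measured size. GPT2, a mitochondrial alanine aminotransferase, gave -0.81 (adjusted p = 0.136 in limma), and ASPA, aspartoacylase, -0.65 (adjusted p = 0.158 in limma). Neither passed.

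Of the 9 arginine, urea cycle and polyamine enzymes, 2 passed as lower in rIPCl, 1 of them near background. ACY1, an aminoacylase that frees amino acids from their acetylated form, fell by 1.09 (standard error 0.29, adjusted p = 0.0441 in limma), from 15.90 ± 0.56 to 14.81 ± 0.43 (SD, n = 5 each), and both of its probes were lower. OTC, the ornithine transcarbamylase of the urea cycle, also passed as lower (adjusted p = 0.0273 in limma), but it was well above background on only 1 control, 3 rIPCe and 1 rIPCl arrays, so no size is given and the call rests on signals near background. AZIN1, which regulates polyamine synthesis, gave -0.33 and did not pass (adjusted p = 0.181 in limma).

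Of the 7 branched-chain amino acid enzymes all had values below 0 in rIPCl, and 1 passed. DLD, the dihydrolipoamide dehydrogenase shared by several mitochondrial complexes, fell by 0.46 (standard error 0.11, adjusted p = 0.0347 in limma), and its 8 other probes had the same sign. PCCB, a subunit of propionyl-CoA carboxylase, gave -0.57 (adjusted p = 0.0801 in limma), and IVD, isovaleryl-CoA dehydrogenase, -0.40 (adjusted p = 0.133 in limma).

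Of the 9 enzymes of aromatic amino acids, lysine and histidine, 8 had values below 0 and 1 passed. MAOA, a monoamine oxidase, fell by 1.19 (standard error 0.25, adjusted p = 0.0255 in limma), from 14.66 ± 0.43 to 13.46 ± 0.36 (SD, n = 5 each), with all rIPCl kidneys below all controls. MAOB, its paralog, gave -0.58 with all rIPCl kidneys below all controls, and did not pass (adjusted p = 0.0513 in limma). Such a separation below controls held for 6.76% of all probes. QDPR, which regenerates the cofactor of the aromatic hydroxylases, gave -0.59 (adjusted p = 0.0777 in limma).

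**Figure D4:**
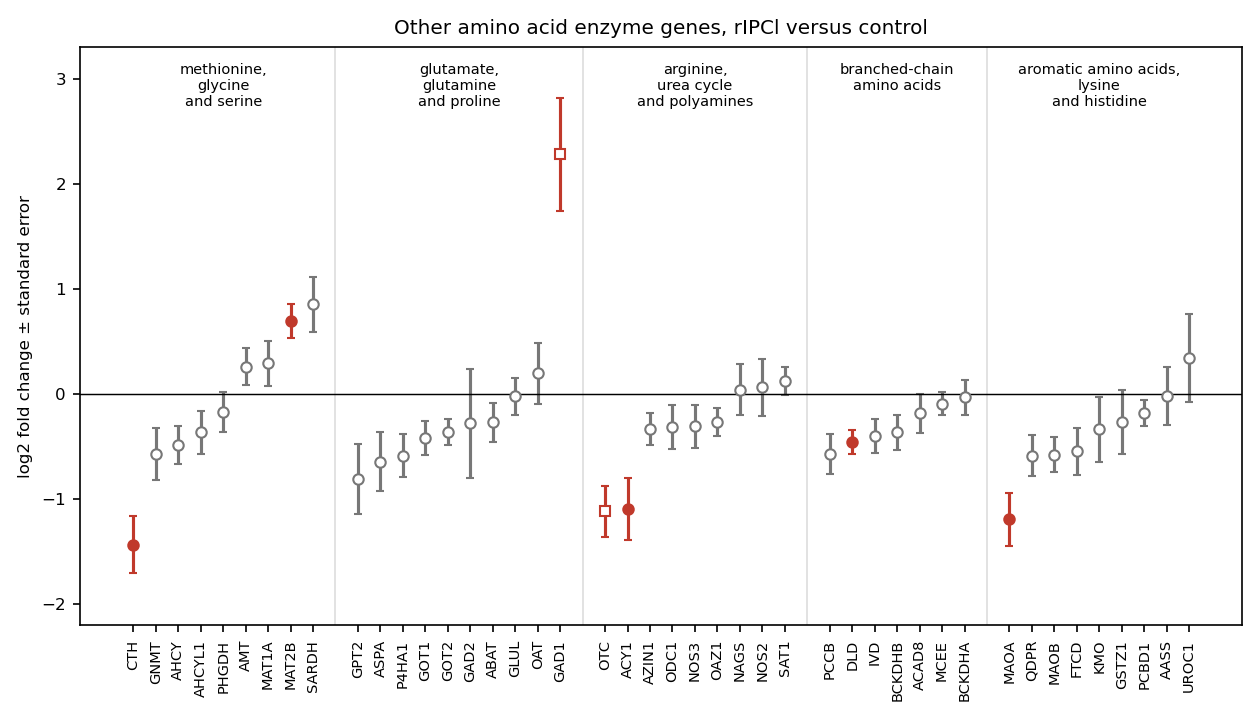
Log2 fold change in rIPCl against control (y axis; bars are the standard error of the fit) of the 44 other amino acid enzyme genes, by list (x axis). Filled red points passed an adjusted p of 0.05 and were well above background on all 15 arrays: CTH, ACY1, DLD and MAOA lie below 0 and MAT2B above it. The open red squares, OTC and GAD1, passed on signals that were not well above background on most arrays, so their height is not a measured size.

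Markers of some cell types differed between rIPCl and control. The proximal tubule is a main site of amino acid metabolism, and of its 14 measured markers 3 fell in rIPCl by limma and 0 rose, with a median log2 fold change of -0.61. At the same adjusted p under 0.05, 3.58% of all probes were lower and 2.69% higher. Of the 14 markers, 11 lay below 0 and 3 above. With the slide as a random block 0 of all 43603 probes passed in this comparison, so these calls and those of the other markers below were lost. Those that fell were SLC7A9, a cystine transporter subunit, by 1.24, CAT, catalase, by 1.16, and FBP1, of gluconeogenesis, by 0.91 (adjusted p = 0.0239, 0.0494 and 0.0386). SLC34A1, the phosphate transporter of the proximal tubule, gave -0.14 and MIOX, an inositol oxygenase of the same cells, -0.10, and neither passed. SLC22A8, the organic anion transporter, gave -1.51 and did not pass (adjusted p = 0.0587 in limma). All 5 rIPCl kidneys lay below all 5 controls for SLC22A8 and SLC7A9, as they did for BHMT and GLUD1. That held for 6.76% of all probes. The summed linear signal of the 14 markers ran from 269200 to 790600 in control (median 494600), from 261900 to 571700 in rIPCe (median 389000) and from 186100 to 503700 in rIPCl (median 272400). The sums overlapped between all 3 groups. A linear sum is weighted to the brightest markers, here FBP1, PCK1 and CAT, with mean log2 signals of 17.18, 16.79 and 16.57 in control. Control 1, which had the lowest BHMT and GLUD1 signals among controls, also had the lowest proximal tubule sum among them. In rIPCe the same held for rIPCe 3, at 261900. Other arrays differed from this. The sum of rIPCl 2, 503700, was above the control median, yet its BHMT and GLUD1 lay below every control. The sums of rIPCe 4 and 5, 542600 and 571700, were also above that median, with BHMT below every control. The other rIPCl kidneys had sums from 186100 to 284100.

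Of the 9 macrophage markers 5 rose in rIPCl by limma, against 2.69% of all probes, with a median of 1.30. Of the 9 markers, 8 lay above 0 and 1 below. Their sum ran from 11930 to 39420 in control, from 17950 to 36030 in rIPCe and from 24820 to 86270 in rIPCl. The T and B cell markers had a median of 1.29 over 8 genes, of which 1 rose, and the tubular injury markers 1.04 over 5 genes, of which 1 rose. All 8 T and B cell markers lay above 0. Of the tubular injury markers, 4 lay above 0 and 1 below. None of the 8 distal nephron, 4 neutrophil, 3 endothelial, 3 fibroblast, 4 liver and 1 podocyte markers passed in rIPCl by limma, and at an unadjusted p under 0.05 only 2 fibroblast markers, higher, and 2 liver markers, lower, did. No red cell marker was measured. BHMT, OTC and ARG1 are also liver enzymes, and of the liver markers ALB, albumin, gave 0.03, TTR, transthyretin, -3.39 and TF, transferrin, -2.78. The part of the cell makeup in the enzyme differences was not tested.

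**Figure D5:**
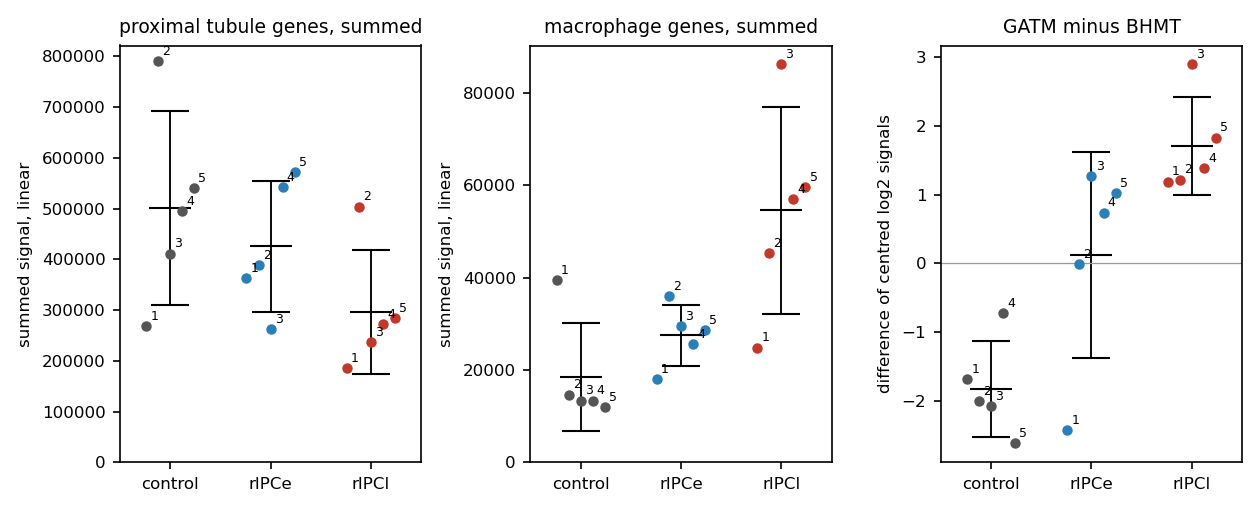
Summed linear signal (y axis) of the 14 proximal tubule markers (left) and the 9 macrophage markers (middle), and the difference between the centred log2 signals of GATM and BHMT (right), on each array by group (x axis); points are single pigs with their replicate number, and bars are the mean and SD (n = 5 a group). The proximal tubule and macrophage sums overlap between control and rIPCl; the GATM minus BHMT difference, of genes already known to differ, runs from 1.19 to 2.89 in rIPCl.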

How the data were processed

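Kidney RNA of 15 pigs was labelled with Cy3 and hybridised to Agilent porcine 1-colour arrays. The authors deposited scanner output of Agilent Feature Extraction 11.0.1.1, with the processed spot intensity on a linear scale, background-subtracted and not normalized between arrays, and a table of values equal to that intensity. Here control spots and scanner-marked outlier spots (1 to 70 per array) were left out, log2 values of the 15 arrays were brought to 1 distribution by quantile normalization, and repeat spots of a probe were averaged. limma 3.58.1 (lmFit, eBayes; R 4.3.3, the data.table package, version 1.17.8) was fitted with 3 group means on all arrays, with Benjamini-Hochberg adjustment over 43603 probes; it was tested on simulated data. Accessions were matched to pig symbols of RefSeq. No sequences were used here.

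The members and lists were chosen with earlier results of these data known. A gene outside the members was represented by its probe of highest mean signal. The genes named are all members, up to 4 called genes of each enzyme list that were well above background in a group, filled up to 3 by the largest changes, and the 3 genes nearest in pattern to each member (for DAO, DDO and ARG1 only some of them are reported here); markers named are those called and examples chosen after their values were seen. Per the study's methods each array is a separate, randomly allocated pig. The alternatives were 75th percentile scaling, the deposited table, normexp on the median signals (offset 50; the mean signals were not used here), filters, blocks, the methods' t-test and leaving out arrays.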

Additional observations from a re-analysis of the deposited data

Results flagged for a closer look

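Of 120 groups of arrays examined for a single pig far from the others (25 probes of the 6 enzymes and 15 other named genes, in 3 groups each), 5 held one, and chance flags about 1 in 20. On 2 of the 10 GLUD1 probes rIPCl 3 lay below the other rIPCl kidneys, at a log2 signal of 12.4493 with the nearest at 12.7583, and at 12.5791 with the nearest at 12.9273. For MAOB rIPCl 3 was also the lowest of its group, at 11.6295 with the nearest at 12.2406. For MAOA rIPCe 3 was the lowest of its group, at 13.2313 with the nearest at 14.0825. For SARDH rIPCl 1 was the lowest of its group, at 10.715 with the nearest at 11.7941.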

How the results depend on the processing

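Over 9 alternatives of scaling, background, filter, samples, replicate block, test and mean over a gene's probes, log2 fold changes in rIPCl were compared. They ran from -2.56 to -2.36 for BHMT, -1.33 to -1.14 for GLUD1 and 0.94 to 1.11 for GATM. DAO ran from -0.46 to -0.21, DDO from -0.40 to 0.05 and ARG1 from 0.02 to 0.51. The ends at -1.33, 1.11, -0.46 and -0.40 came from the mean over a gene's probes, the others from the brightest probe. In rIPCl the filter of dim probes, only the 10 arrays compared, the replicate block and the t-test kept the same group means. Those settings could not move the values. The 75th percentile scaling moved the median of all probes in rIPCl to -0.11 and the share of higher among all calls from 42.9% to 27.9%. With the slide as a fixed block the rIPCe values were -1.70 for GLUD1, -0.26 for DAO and -1.03 for DDO, with 1 other enzyme lower. In rIPCl they were -3.15 for BHMT, -2.09 for GLUD1, -0.61 for GATM (reversed), -0.96 for DAO, -1.81 for DDO and 4.39 for ARG1, with 1 other enzyme lower and 0 higher, and AZIN1 (0.67) and SARDH (-0.30) reversed. Between the windows they were -0.91 for GATM, -0.78 for DDO and 2.32 for ARG1. The cause was not tested.

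The other enzymes lower in rIPCl, 5 in the report, were 10 with 75th percentile scaling, 3 with only the 10 arrays compared, 3 with the replicate block, 0 with the slide as a random block (correlation 0.228) and 2 with the methods' t-test; the 2 higher were 1 with normexp, 0 with the replicate block, 0 with the random slide block, 1 with gene means over probes and 1 by the study's fold rule. In rIPCe that last rule called 1 higher, and leaving out control 1 and rIPCe 1, chosen after seeing the data, called 1 lower. The methods' t-test with the fold rule gave 4 lower and 1 higher in rIPCl. Replicate numbers did not pair the pigs: 2 of 15 same-numbered pairs correlated over 0.1 (range -0.393 to 0.164) and 0 arrays were nearest to their own number in both other groups. The replicate block changed no member's direction, but where every array had a value it could not change a fold change.
With 1 array left out at a time the count lower in rIPCl ran from 0 to 7 and the count higher from 0 to 3, and those of the other comparisons stayed at 0.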
